A study of Mus musculus with 2 samples.

Results

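The 43 genes described here encode the cytoskeleton and the adhesion machinery of cultured hepatocytes: actin with its cross-linkers and regulators, tubulin, vimentin, non-muscle myosin with tropomyosin, adhesion plaque proteins, integrins with their matrix, and annexins, S100 proteins and galectin-1. They were chosen by name, but with earlier results of these data known. All 43 were found among the 20505 genes that both deposited tables list. The RNA came from primary hepatocytes of the C57BL/6 strain, isolated by perfusing the liver with type II collagenase and kept in DMEM with fetal bovine serum. Both cultures received adenovirus overnight, which carried β-galactosidase (β-Gal, a bacterial enzyme that serves as the control) or HuR, the RNA-binding protein that Elavl1 encodes. There was 1 library for each virus, so no value has a replicate, no difference between the groups could be tested, and no p-value is given.

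Actin filaments, microtubules and intermediate filaments carry the shape of a cell. Integrins tie actin to the matrix outside through plaques of talin, vinculin, zyxin and α-actinin, and non-muscle myosin pulls on those filaments. Hepatocytes taken out of the liver flatten on the dish, and strong expression of actin, tubulin and adhesion genes is a known mark of that state. HuR binds U-rich and AU-rich stretches, mostly in the 3′ ends of mRNAs, and β-actin mRNA is among the transcripts it has been reported to bind.

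Elavl1 itself stood at 9.67 FPKM under β-Gal and at 4480 FPKM in the library labelled HuR. FPKM is a read count divided by transcript length and by library size. The values imply a depth of 18357017 reads under β-Gal and of 17671387 under HuR. The 9 hepatocyte markers found summed to 28827 FPKM under β-Gal and 31739 under HuR. Most of each sum was albumin (Alb), at 25353 FPKM under β-Gal and 27642 under HuR. Of the 9 markers, 6 were higher under HuR and 3 were lower. Where a pair of values is given for a gene, the β-Gal library comes first and the HuR library second. Differences below are log2((HuR + 1)/(β-Gal + 1)) on FPKM, and a gene was compared when it reached 1 FPKM in a library, which left 12905 genes and all 43 members. Ratios and folds are of the FPKM values themselves, and the ranges in parentheses are 95% counting intervals by the exact Clopper-Pearson method, which cover counting error only. Differences between cultures, infections or library preparations lie outside them.

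Cytoskeleton and adhesion transcripts were abundant in both libraries, and most differed little. Of the 43 genes, 4 were at least 2-fold lower in the HuR library, namely Actn1, Vcl, Itgav and Thbs1, which is 9.30% of the members beside 8.31% of all compared genes. That count was 2 at a pseudocount of 5 FPKM, 2 with the all-gene median set to 0 and 2 with the GC and length trend also removed, and it was 6 after rescaling to equal FPKM sums. None of the 43 was at least 2-fold higher, beside 5.35% of all compared genes. At 1.5-fold, 13 members were lower (30.2%, beside 23.4% of all) and 1 was higher (2.33%, beside 12.0% of all). Within 1.5-fold lay 29 members, 67.4% against 64.5% of all compared genes. The median log2 difference of the members was -0.21, and that of all compared genes was -0.17. Below 0 stood 30 members, but only 23 stood below the median of all compared genes. The member classes were not alike: adhesion plaque (3 genes) and integrin and matrix genes (6) lay lowest, whereas Anxa2, Anxa5 and the myosin light chains lay near 0 or above it. Outside the 43 genes, the lists closest to these adhesion classes did not lie as low. Focal adhesion proteins had a median of -0.15, other integrins and adhesion receptors 0.05, and matrix and remodelling genes -0.04. Other related lists lay lower: membrane linkers, spectrins and septins at -0.67, serum response factor with the YAP axis at -0.61, and cell-cell junction genes at -0.50.

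**Figure D1:**
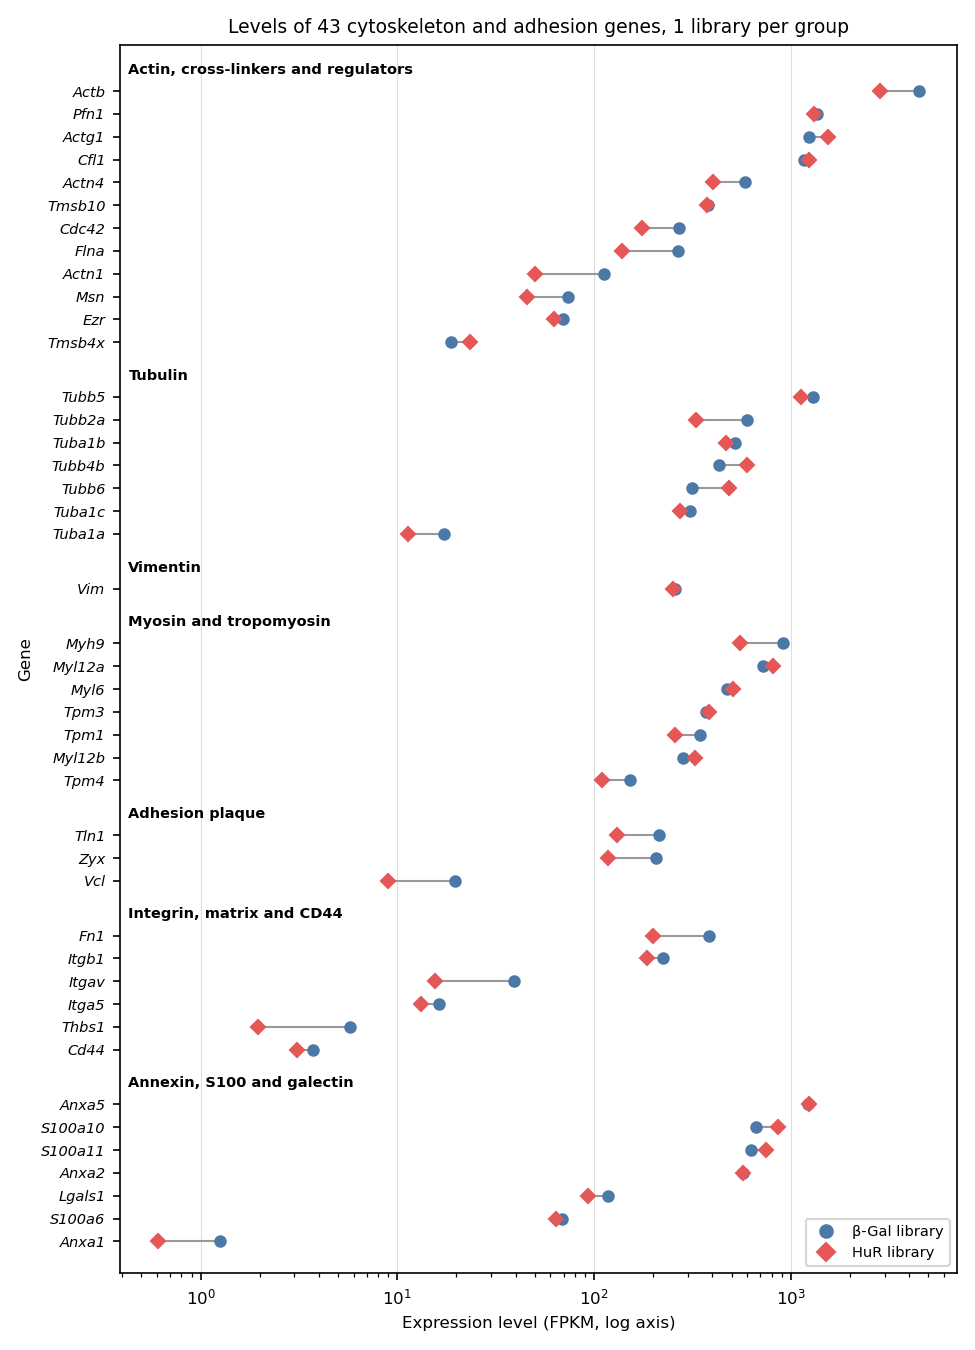
Expression level of each of the 43 genes in FPKM (log axis) in the β-Gal library (circles) and the HuR library (diamonds), grouped by class, with a grey line joining the values of a gene. Levels run from 1.26 FPKM (Anxa1) to 4484 FPKM (Actb) in β-Gal, and the pairs lie far apart for Actn1, Vcl, Itgav and Thbs1 but close together for Pfn1, Vim, Anxa2 and Anxa5.

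**Figure D2:**
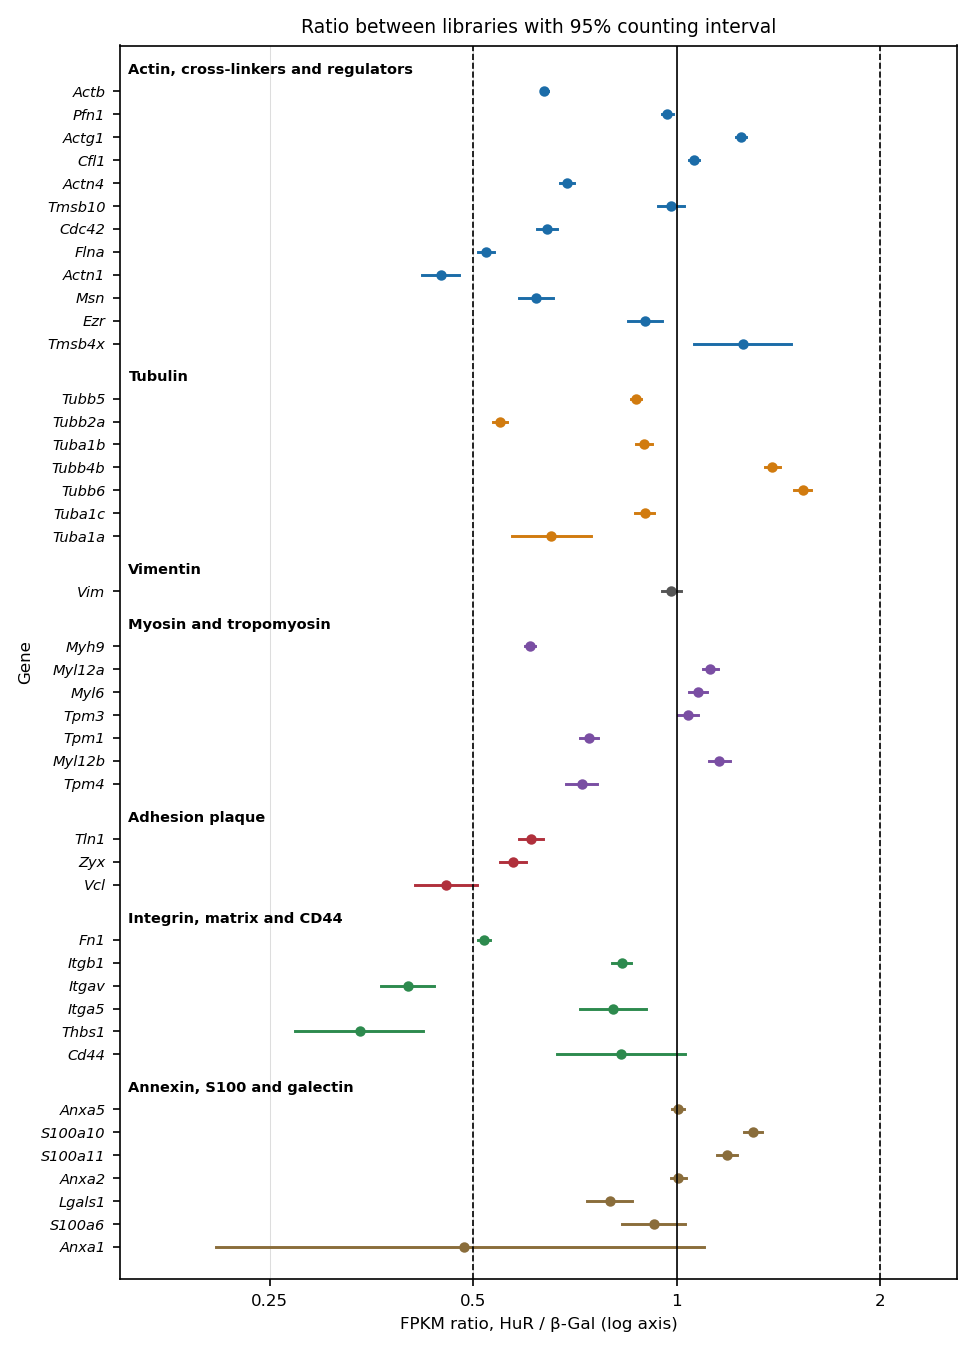
Ratio of FPKM in the HuR library to FPKM in the β-Gal library for each gene (log axis), with bars for the 95% counting interval, a solid line at equal levels and dashed lines at 2-fold. The intervals of Actn1, Itgav and Thbs1 lie wholly beyond 2-fold lower, that of Vcl crosses the line, and the widest belongs to Anxa1, the gene with the fewest reads.

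Among the members 32 reached 100 FPKM in a library and 6 reached 1000 FPKM. Together they held 2.92% of all FPKM under β-Gal and 2.46% under HuR. As shares of reads the sums were 2.61% and 2.18%. Actb, the cytoplasmic β-actin gene, was the most abundant of them in both libraries. It ranked 8 of all genes in β-Gal and 20 in HuR.

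The cytoplasmic actins went opposite ways. Actb (chromosome 5, 142903115 to 142906754, minus strand, GRCm38) stood at 4484 and 2855 FPKM, a 1.57-fold lower level (1.55 to 1.59). Actg1 (chromosome 11, 120345690 to 120348542, minus strand), which encodes γ-actin, stood at 1241 and 1546 FPKM, a ratio of 1.25 (1.23 to 1.27). Summed, the pair came to 5725 and 4402 FPKM, and β-actin made up 78.3% of the sum in β-Gal and 64.9% in HuR. The signs held in every setting tried, from -0.96 to -0.48 for Actb and from 0.02 to 0.48 for Actg1 on the log2 scale. Of the 100-base windows of the Actg1 transcript, 51.1% also occur in transcripts of other genes, largely Gm12715, which stood at 56.1 and 60.0 FPKM. For Actb the share was 1.10%. Reads of Actg1 and its copies may therefore not be fully separated.

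The 3′ UTRs of these transcripts are shown because HuR is known for binding there. The pentamer ATTTA, a core of AU-rich elements, occurs once in the 683 bases of the annotated Actb 3′ UTR and 2 times in the 700 bases of that of Actg1. It is in capitals below, 5′ to 3′ on the transcript's strand, within 29 bases of GENCODE M21 transcript sequence. The number after each name is the position of the pentamer from the first base after the stop codon.
Actb, 186: ttttgactcaggATTTAaaaactggaacg
Actg1, 243: gtgcatatcttgATTTAgtccttagttca
Actg1, 572: attcattctttaATTTAtgtaaggttttt

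Of the proteins that bundle and brace actin, all 3 in the set were lower in the HuR library. Actn1, for α-actinin-1, a cross-linker of actin bundles in stress fibres and plaques, stood at 112 and 50.2 FPKM (2.24-fold lower, 2.10 to 2.38). It lies on chromosome 12 at 80167547 to 80260371. Its paralog Actn4, for α-actinin-4, stood at 583 and 401 FPKM (1.45-fold lower, 1.42 to 1.49). Flna, for filamin A, which joins actin filaments into networks, stood at 267 and 139 FPKM (1.91-fold lower, 1.86 to 1.97), just short of 2-fold. The α-actinins share 79.9% of their coding bases and no 100-base window.

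Small proteins that govern actin assembly stayed close to their β-Gal level. Cfl1, for cofilin, which severs filaments, stood at 1169 and 1241 FPKM. Pfn1, for profilin, which feeds monomers to growing ends, stood at 1355 and 1313 FPKM. Tmsb10, for a thymosin that holds actin monomers, stood at 381 and 374 FPKM, but 27.8% of its windows occur in other transcripts, mostly Gm9844, so its value is uncertain. Its relative Tmsb4x was far less abundant, at 18.8 and 23.5 FPKM (ratio 1.25, 1.06 to 1.48). With the median of all compared genes set to 0, the differences of Pfn1 and Tmsb10 turned positive, and with the GC and length trend removed and the median kept that of Cfl1 turned negative. Cdc42, a GTPase that starts filopodia and sets polarity, was lower, at 272 and 175 FPKM (1.56-fold, 1.504 to 1.61). Of the proteins that fasten actin to the plasma membrane, Msn (moesin) stood at 73.4 and 45.5 FPKM (1.61-fold lower, 1.53 to 1.71) and Ezr (ezrin) at 69.6 and 62.5 FPKM (1.11-fold lower, 1.05 to 1.18). The moesin and ezrin intervals do not overlap. Over the 12 genes of actin, its cross-linkers and regulators, the median was -0.34, and Actn1 alone passed 2-fold.

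Tubulin genes differed by isotype. Microtubules are built from pairs of α- and β-tubulin, and each kind is encoded by several near-identical genes. The β-tubulin Tubb5 was the most abundant, at 1293 and 1127 FPKM. Tubb2a stood at 599.9 and 329 FPKM, 1.83-fold lower in the HuR library (1.78 to 1.87). Tubb6 stood at 314 and 483 FPKM and Tubb4b at 433 and 601 FPKM, ratios of 1.54 (1.49 to 1.58) and 1.39 (1.35 to 1.42). Tubb6 had the largest positive difference of all 43 genes, 0.62, and the only one past 1.5-fold. The 4 β-tubulins together came to 2640.3 and 2539 FPKM, a ratio of 0.96, so their sum differed far less than the members did. Within that sum Tubb2a went from 22.7% to 12.9%, Tubb6 from 11.9% to 19.0% and Tubb4b from 16.4% to 23.7%.

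The 3 α-tubulins in the set kept their make-up, with Tuba1b at 61.8% and 62.1% of their sum and Tuba1c at 36.1% and 36.4%. Outside the set, Tuba4a was more abundant than Tuba1c, at 418 and 362 FPKM, so these are not shares of all α-tubulins. Tuba1b stood at 524 and 468 FPKM and Tuba1c at 306 and 274 FPKM, while Tuba1a was scarce, at 17.3 and 11.3 FPKM (1.53-fold lower, 1.34 to 1.75). The small negative differences of Tuba1b and Tuba1c turned positive once the median of all compared genes was set to 0. Coding sequences of Tuba1a and Tuba1b are 98.3% identical, and 65.1% of the 100-base windows of Tuba1a, 69.5% of those of Tuba1b and 53.4% of those of Tuba1c occur in other transcripts. Single α-tubulin values are therefore uncertain. For Tubb2a the share was 36.9%, nearly all with its paralog Tubb2b, which stood at 27.6 and 15.5 FPKM. For Tubb4b it was 29.2%, mostly with Tubb4b-ps1, at 5.95 and 10.7 FPKM. Tubb5 and Tubb6 shared no window. Over the 7 tubulin genes the median was -0.16, with 0 past 2-fold either way.

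**Figure D3:**
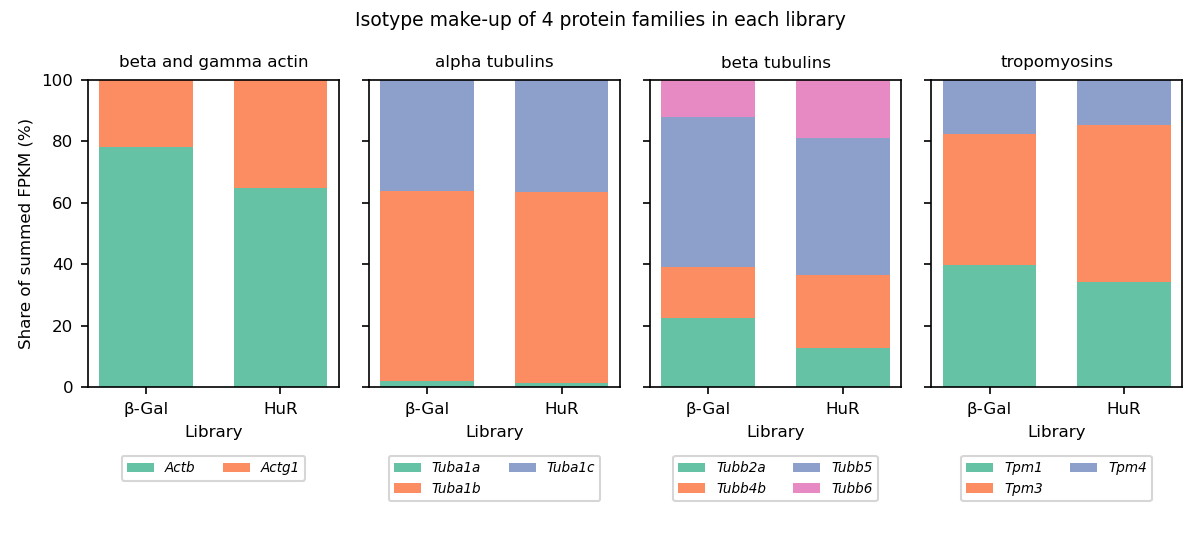
Share of the summed FPKM (%) that each gene held among β- and γ-actin, 3 α-tubulins, 4 β-tubulins and 3 tropomyosins, as stacked bars for the β-Gal and the HuR library (1 library each). The β-actin share was 78.3% and 64.9% and the Tubb2a share 22.7% and 12.9%, while the α-tubulin shares were nearly equal.

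Vimentin (Vim), the intermediate filament protein of mesenchymal cells and of hepatocytes that lose their liver character in culture, stood at 257 and 252 FPKM, with a counting interval of the ratio that holds 1 (0.950 to 1.02).

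The motor genes split between heavy and light chains. Myh9, for the heavy chain of non-muscle myosin IIA, stood at 909 and 552 FPKM (1.65-fold lower, 1.62 to 1.68). The regulatory light chains Myl12a and Myl12b stood at 723 and 811 FPKM and at 283 and 327 FPKM, with ratios of 1.12 (1.09 to 1.15) and 1.16 (1.12 to 1.20). The essential light chain Myl6 stood at 472 and 508 FPKM, a ratio of 1.08 (1.04 to 1.11), and its sign turned with the GC and length trend removed. Of its windows 26.5% occur in other transcripts, Gm5526 (56.3 and 93.8 FPKM) among them, so its value is uncertain as well. The heavy chain held 1.93 times the FPKM of Myl6 in β-Gal and 1.09 times in HuR. That level comparison depends on the transcript length used: with the length of a full coding transcript in place of the mean of all annotated ones, the heavy chain was at 0.428 and 0.241 times Myl6. Myl12a and Myl12b are neighbours on chromosome 17 with coding sequences that are 96.5% identical. Of their windows, 24.5% and 31.4% also occur in other transcripts, all of them in a further annotated locus named Myl12b that neither library's values include. With each other they share only 1.14% and 1.03% of windows. The part of that locus in their values was not tested, so the values of each stay uncertain.

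Tropomyosins, which lie along actin filaments and set which proteins reach them, also split. Tpm1 stood at 346 and 257 FPKM (1.35-fold lower, 1.31 to 1.39) and Tpm4 at 152 and 109.8 FPKM (1.38-fold lower, 1.31 to 1.46). Tpm3 stood at 370.4 and 384 FPKM, and its share of the 3 genes went from 42.6% to 51.2%. Its sign turned when FPKM were rescaled to the same sum in each library and when the GC and length trend was removed with the median kept, and 45.7% of its windows occur in Tpm3-rs7. Over the 7 genes of myosin and tropomyosin the median was 0.05, with 0 past 2-fold; it fell below 0 after rescaling and after trend removal.

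The 3 adhesion plaque genes were all lower in the HuR library, under each setting tried. Vcl, for vinculin, which reinforces the link between integrin and actin under tension, stood at 19.6 and 8.95 FPKM (2.19-fold lower, 1.97 to 2.44). It lies on chromosome 14 at 20929398 to 21033676, and its log2 difference of -1.05 was the nearest to the 2-fold threshold from beyond. Vcl was short of 2-fold at a pseudocount of 5 FPKM, with the all-gene median set to 0, and with the GC and length trend removed under either centring. Tln1, for talin-1, which binds and activates integrins, stood at 214 and 130.3 FPKM (1.64-fold lower, 1.58 to 1.71). Zyx, for zyxin, a sensor of strain on actin, stood at 205 and 118 FPKM (1.74-fold lower, 1.67 to 1.82). Summed, they came to 439 and 257 FPKM, a ratio of 0.59, and their median was -0.80.

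The 6 integrin, matrix and CD44 members were lower too, all below 0 with a median of -0.62. Fn1, for fibronectin, the matrix protein that hepatocytes also secrete into plasma, stood at 385 and 199 FPKM (1.93-fold lower, 1.89 to 1.97) and missed 2-fold narrowly, at -0.95. Thbs1, for the matricellular glycoprotein thrombospondin-1, was scarce, at 5.78 and 1.97 FPKM, from 345 and 113 reads (2.94-fold lower, 2.37 to 3.67). Itgav, for integrin αv, a receptor subunit for vitronectin and other RGD proteins, stood at 39.1 and 15.6 FPKM (2.502-fold lower, 2.29 to 2.74) with a log2 difference of -1.27. Itgav or Actn1 had the most negative difference of the 43 genes in the settings tried, save at a pseudocount of 0.1 FPKM, where Thbs1 did at -1.51 beside -1.32 for Itgav. Itgav lies on chromosome 2 at 83724397 to 83806916.

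The subunits of the classical fibronectin receptor differed less. Itgb1, for integrin β1, which pairs with many α subunits, stood at 224 and 186 FPKM (1.21-fold lower, 1.17 to 1.25), and Itga5, for integrin α5, at 16.3 and 13.2 FPKM (1.24-fold lower, 1.11 to 1.39). Their intervals lie apart from that of Itgav. Cd44, for the hyaluronan receptor, stood at 3.74 and 3.10 FPKM, and its counting interval holds 1. With the GC and length trend removed, Cd44 turned positive under either centring and Itgb1 turned positive when the all-gene median was also centred at 0.

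Annexins, S100 proteins and galectin-1 had a median near 0, with members on both sides of it. Annexins bind membrane phospholipid in a calcium-dependent way. Anxa5 stood at 1229.7 and 1235 FPKM and Anxa2 at 571 and 575 FPKM, with ratios of 1.00 (0.985 to 1.02) and 1.01 (0.9804 to 1.03). Anxa1 was barely present, at 1.26 and 0.608 FPKM, and its interval of the ratio, 0.208 to 1.10, covers both a fall and no difference. S100a10, the partner of annexin A2 in a membrane-bound complex, stood at 665 and 863 FPKM (ratio 1.30, 1.26 to 1.34), so the S100a10 level was above that of Anxa2 in both libraries and the more so in HuR. S100a11 stood at 628 and 746 FPKM (1.19, 1.15 to 1.23), but 34.0% of its windows occur in other transcripts, those of Gm12854 and Gm7665. S100a6 stood at 69.1 and 63.8 FPKM, with an interval that holds 1. Lgals1, for galectin-1, a lectin for β-galactosides, stood at 118 and 93.6 FPKM (1.26-fold lower, 1.16 to 1.36). The class median was 0.01, with 0 of 7 genes past 2-fold.

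Longer transcripts tended to stand lower in the HuR library. Over the 43 genes, the log2 difference and the mean annotated transcript length had a Spearman correlation of -0.68, as a description, with all genes read from the same libraries. Across 12678 compared genes with a length it was -0.31. The 12 members under 1000 bases had a median of 0.03, the 21 members of 1000 to 2000 bases -0.16, the 6 of 2000 to 3000 bases -0.49, and the 4 over 3000 bases (Flna, Vcl, Fn1 and Thbs1) -0.998. Medians of all compared genes in the same bins were 0.14, -0.14, -0.38 and -0.44. With GC content the members had a correlation of 0.03, against 0.33 over all compared genes. Once cubic trends with GC content and length were removed over all genes, and the median kept, 4 members were still at least 2-fold lower, but only Actn1 and Itgav were among them as before, joined by Tubb2a and Zyx. With the median also set to 0 there were 2, Actn1 and Zyx. The part of transcript length in these differences was not tested beyond that adjustment.

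**Figure D4:**
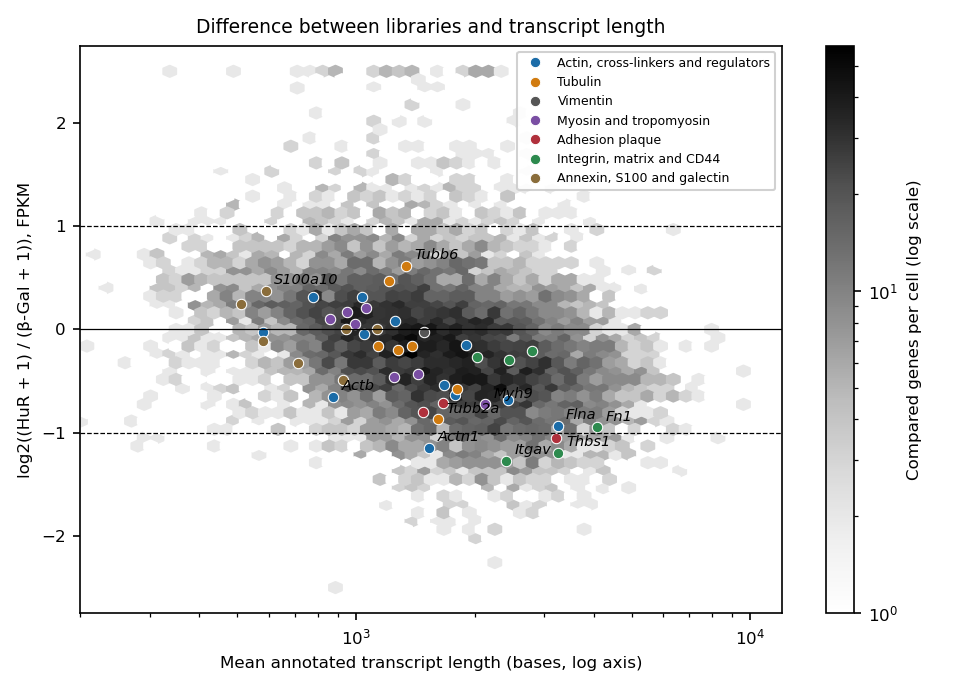
Log2 difference in FPKM between libraries (vertical axis; values beyond 2.5 either way are drawn at 2.5) against mean annotated transcript length in bases (log axis). Shading counts all compared genes and coloured points are the 43 members by class; the 12 members under 1000 bases have a median of 0.03, and the 4 over 3000 bases lie near or below -1.

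Sequence features outside the choice of genes were also compared. At least 1 ATTTA pentamer was found in the annotated 3′ UTR of 23 of the 43 members (53.5%) and of 65.2% of 11072 compared genes with such an annotation. Members with the pentamer had a median of -0.43 and the 20 without -0.08. Over all compared genes the medians were -0.28 and -0.01. Across the members, the log2 difference had a Spearman correlation of -0.41 with 3′ UTR length and of -0.30 with the pentamer count. The part of 3′ UTR length in this split was not tested. Itgav held the most, 19 in 3581 bases, whereas Actn1, Flna and Zyx, all lower in the HuR library, held 0. For Fn1, Itgav, Thbs1 and Vcl, all lower, 1 chosen site each is printed below. The sites of Itgav and Thbs1 are the only ones of those genes in a nonamer, a longer motif around the pentamer. Those of Fn1 and Vcl have the most thymine around them of the gene's sites. Tpm1, Itgb1 and Itga5 also hold a nonamer, with smaller log2 differences of -0.43, -0.27 and -0.29. Whether such sites go with the difference was not tested. The sites are printed as above, with the pentamer in capitals and its position in the 3′ UTR after the name.
Fn1, 516: tacctgtttgttATTTAtcaatttttccc
Itgav, 2545: catgaatacattATTTAtataatgaggaa
Thbs1, 1138: taaatacagattATTTAttaaccctgttc
Vcl, 1384: ctttttttttgcATTTAtcctggctgtat

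Promoter windows, 250 bases before to 50 after the start in RefSeq (GRCm38.p6), were matched by symbol for 37 members. Actb, Fn1, Thbs1, S100a10, Lgals1 and Tubb6 had no match. The CArG box, the motif that serum response factor binds in many actin and muscle genes, was searched on both strands, and its pattern is the same on each. It occurred in 4 of the 37 members (10.8%), namely Actg1, Myl6, Vcl and Anxa5, and in 1.57% of 9105 compared genes with a window. Those 4 genes stood at 0.32, 0.11, -1.05 and 0.01 on the log2 scale, so genes with the motif were found at both ends of the range. TATAAA, on either strand, occurred in 7 of 37 members (18.9%) and 9.08% of compared genes, and the AP-1 motif TGANTCA in 6 of 37 (16.2%) and 6.30%. GGGCGG occurred in 31 of 37 (83.8%) and 68.3%, and CCAAT in 13 of 37 (35.1%) and 42.6%, both on either strand. The boxes are shown in capitals, 5′ to 3′ on the strand of the gene, with the place of each window.
Actg1, chr11:120348551-120348610, minus strand: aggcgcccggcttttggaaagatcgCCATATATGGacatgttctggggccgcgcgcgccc
Myl6, chr10:128493025-128493084, minus strand: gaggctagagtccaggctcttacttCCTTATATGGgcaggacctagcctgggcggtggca
Vcl, chr14:20929148-20929205, plus strand: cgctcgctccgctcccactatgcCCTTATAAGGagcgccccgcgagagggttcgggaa
Anxa5, chr3:36475838-36475887, minus strand: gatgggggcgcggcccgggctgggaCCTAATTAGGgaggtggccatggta

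The same machinery outside the 43 genes was described by 10 lists with 178 compared genes and a median of -0.25. At least 2-fold lower were 23 of them and at least 2-fold higher 3, beside 8.31% and 5.35% of all. Cell-cell junction genes had a median of -0.50, and 7 of 24 were lower, none higher. The adhesion molecule Ceacam1 stood at 22.5 and 5.20 FPKM, the desmosomal cadherin Dsg2 at 43.2 and 11.7 FPKM, and cingulin (Cgn), a tight junction protein, at 68.1 and 20.9 FPKM. Membrane linkers, spectrins and septins had 3 of 14 lower and a median of -0.67. Radixin (Rdx), the relative of ezrin and moesin that predominates in liver, was less abundant than either in both libraries, at 44.4 and 10.9 FPKM. It was 4.08-fold lower in HuR, a larger difference than that of either relative. Sptbn1, for β-spectrin, stood at 62.3 and 27.9 FPKM, and Sept11, for a septin, at 59.6 and 29.3 FPKM.

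Genes that nucleate, cap or sever actin filaments had medians below that of all compared genes. Nucleators and the Arp2/3 complex had a median of -0.32, and 3 of 20 were lower, none higher. Nckap1 and Cyfip1, subunits of the WAVE complex that activates Arp2/3, stood at 91.5 and 31.6 FPKM and at 42.9 and 15.7 FPKM, and the formin Diaph2 at 5.56 and 2.06 FPKM. Capping and severing proteins had a median of -0.24, with 2 of 18 lower, villin (Vil1) at 16.9 and 4.82 FPKM and the cofilin Cfl2 at 42.4 and 20.4 FPKM, and 1 higher, the capping protein Capg at 22.1 and 45.4 FPKM.

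Serum response factor, its coactivators and the YAP axis had a median of -0.61, and 3 of 19 were lower, none higher. The coactivator Mrtfb stood at 17.1 and 4.93 FPKM, the YAP partner Tead1 at 29.7 and 12.0 FPKM, and the matricellular YAP target Ccn2 at 16.6 and 6.59 FPKM. Focal adhesion proteins had 2 of 19 lower and a median of -0.15, with Pdlim5 at 82.2 and 33.7 FPKM, Lpp, a relative of zyxin, at 8.95 and 3.37 FPKM, and tensin-3 (Tns3) at 45.8 and 24.4 FPKM. Other tubulins and microtubule proteins had 1 of 19 lower, the kinesin heavy chain Kif5b at 59.5 and 16.7 FPKM, and 1 higher, the tubulin-binding stathmin Stmn1 at 36.9 and 77.5 FPKM. The tubulin folding cofactor Tbcc stood at 9.46 and 4.39 FPKM.

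The remaining lists had medians near 0. Other integrins and adhesion receptors had a median of 0.05, and 1 of 15 was higher, none lower. The higher gene was Ddr1, a collagen receptor kinase, at 21.1 and 104 FPKM (ratio 4.91, 4.56 to 5.28), while syndecan-2 (Sdc2) stood at 23.2 and 13.5 FPKM and the tetraspanin Cd9 at 93.5 and 149 FPKM. Matrix and remodelling genes had 1 of 18 lower, the basement membrane protein nidogen-1 (Nid1) at 47.5 and 22.8 FPKM, and a median of -0.04. The matrix metalloproteinase Mmp14 stood at 193 and 344 FPKM and the collagen IV chain Col4a2 at 26.1 and 15.1 FPKM. Other annexins, S100 proteins and galectins had 1 of 12 lower, the gut galectin Lgals4 at 21.96 and 6.77 FPKM, and a median of -0.02, with Anxa4 at 67.0 and 43.3 FPKM and Anxa6 at 98.4 and 71.0 FPKM.

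**Figure D5:**
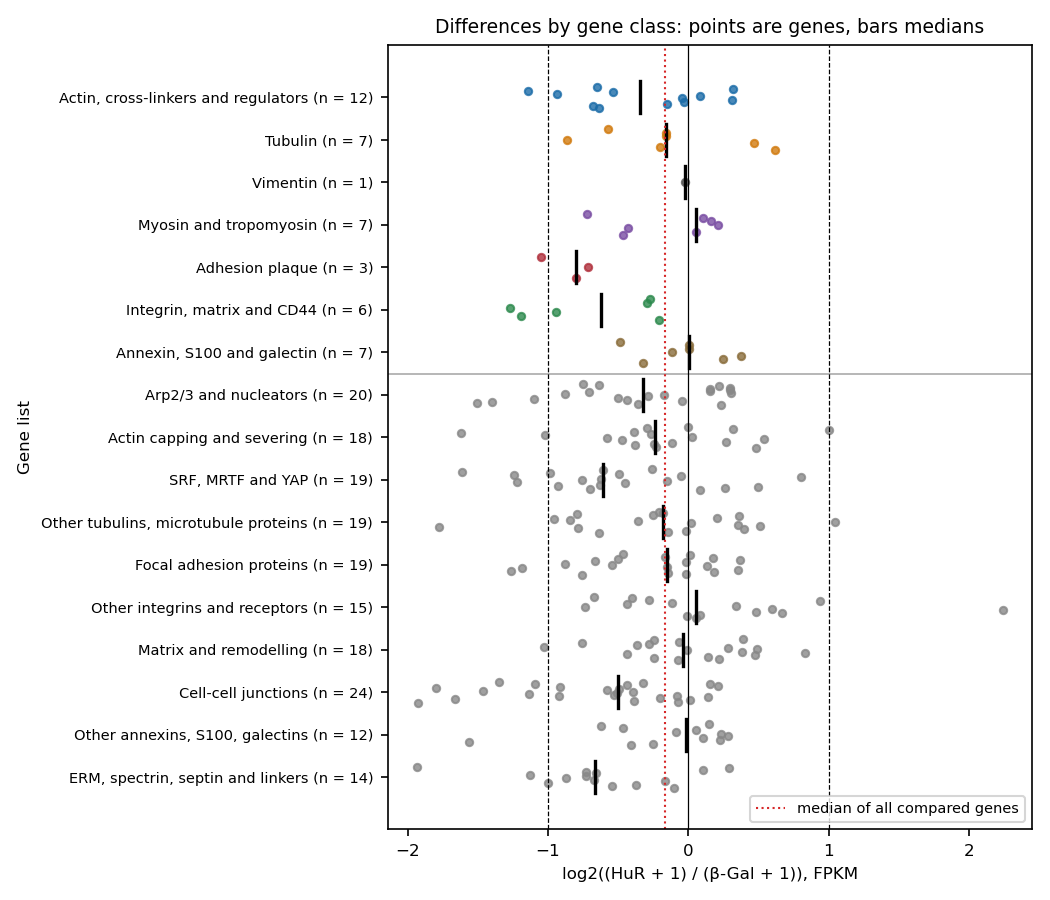
Log2 difference in FPKM between libraries for each gene (points) of the 7 member classes (coloured) and 10 related lists (grey), with black bars for the class median, a dotted line at the median of all compared genes (-0.17) and dashed lines at 2-fold. Adhesion plaque genes (median -0.80) lie lowest among the classes, and annexin, S100 and galectin genes have a median of 0.01.

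Other liver cells express many of these genes, so their markers are given beside the members. Of 12 stellate cell and fibroblast markers, 6 were compared and 5 of those were at least 2-fold lower, beside 8.31% of all compared genes. The sixth, Tagln, stood at 7.56 and 7.53 FPKM. The 12 summed to 21.4 FPKM in β-Gal and 9.59 in HuR, with Lrat, Pdgfrb and Lum at 0 in HuR after 1 to 7 reads in β-Gal. No listed gene is at 0 in β-Gal, against 2233 in HuR, so a marker at 0 could appear in HuR only. The collagen genes Col3a1 and Col1a1 stood at 3.65 and 0.438 FPKM and at 3.12 and 0.318 FPKM, and smooth muscle actin (Acta2) at 2.08 and 0.0953 FPKM. The 8 smooth muscle markers summed to 28.8 and 14.5 FPKM, with Actg2 at 2.92 and 0.124 FPKM, Hspb6 at 17.4 and 6.89 FPKM and Des at 1.51 and 0.256 FPKM. Smtn went the other way, at 5.66 and 7.01 FPKM. The 12 macrophage markers went the other way, summing to 67.9 and 147 FPKM, with Marco at 5.55 and 14.8 FPKM, the complement genes C1qb (2.503 and 6.97 FPKM) and C1qc (2.28 and 6.32 FPKM). The 10 endothelial markers summed to 23.3 and 42.3 FPKM, with Clec4g at 0 in HuR, Eng at 3.96 and 10.5 FPKM, Stab1 at 9.79 and 21.5 FPKM and Pecam1 at 1.78 and 2.54 FPKM. The 9 cholangiocyte markers summed to 193 and 161 FPKM. The 2 most abundant went opposite ways, Cldn4 at 113 and 72.6 FPKM and Spp1 at 50.8 and 71.9 FPKM. Of the 8 compared, 2 were above 0 on the log2 scale and 6 below. Krt7 stood at 0.199 and 2.76 FPKM, Cldn7 at 2.31 and 0.137 FPKM and Epcam at 2.14 and 0.194 FPKM. Among hepatocyte markers Cps1 stood at 8.41 and 3.17 FPKM, Apob at 137 and 69.3 FPKM and Ttr at 817 and 1177 FPKM. Acta2, Actg2, Krt7, Cldn7 and Epcam rested on few reads in 1 of the libraries. Counting intervals of their ratios are wide, such as 0.00446 to 0.143 for Acta2 and 6.30 to 34.5 for Krt7. In these bulk libraries fewer cells of a type and less RNA per cell cannot be told apart. The part of other cell types in the members' differences was not tested.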

How the data were processed

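Per the submitters' processing notes, TopHat2, HTSeq 0.6.1 and the build GRCm38 were used; the sources used here do not give their order, the annotation release, the library kit or the strand setting. The authors deposited 1 table of FPKM per library. No gene is at 0 in the β-Gal table, and 2233 are in the HuR table. Identifiers were matched to GENCODE M21 (GRCm38), which named 20133 of 20505 genes. FPKM moved in steps of whole reads over the rounded mean transcript length, which gave the library totals; values of 73.3% of matched genes, and of 28 of the 43 members, lay within 0.02 of whole reads in both libraries, and the reads of the others are estimates that serve intervals only. The pseudocount was 1 FPKM, the minimum 1 FPKM in a library and the call 2-fold. All 43 members were described; from each of 10 related lists the 3 largest differences among genes of at least 5 FPKM were named, and from each of 6 marker lists the 3 largest among those compared. Tubb2b, Tuba4a, the Gm genes, Tubb4b-ps1, Tpm3-rs7 and the markers Stab2, Vwf, Tek, Cldn4 and Spp1 were named after their values were seen. A further list is not reported here. Members and lists were chosen with earlier results of these data known. Near-copies were sought as shared 100-base windows of GENCODE transcripts. The 3′ UTR is that of 1 representative coding transcript, the principal one with the longest 3′ UTR. The calculations used Python 3.11.15, NumPy 2.4.6, pandas 2.3.3 and SciPy 1.17.1 and were checked on simulated libraries.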

Additional observations from a re-analysis of the deposited data

How the results depend on the processing

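No paired analysis was possible because each group holds 1 library, and for the same reason no replicate could be left out. None of the 43 genes was at least 2-fold higher under any setting with that threshold; at 1.5-fold 1 was higher and 13 lower. The count of genes at least 2-fold lower (4 as reported) was 4 at a pseudocount of 0.1 FPKM, without a filter, at a minimum of 5 FPKM and with the GC and length trend removed (median kept), 6 after rescaling both libraries to the same FPKM sum, and 2 at a pseudocount of 5 FPKM, with the median of all compared genes set to 0, and with the trend removed and the median set to 0. The 4 genes were not the same in each: Actn1 remained in all but the plain centring. By class, a pseudocount of 5 left 0 adhesion plaque genes and 1 integrin or matrix gene lower; centring left 0 actin and 0 adhesion plaque genes; rescaling gave 2 actin genes and 3 integrin or matrix genes; trend removal gave 1 tubulin and 1 integrin or matrix gene with the median kept, and 0 integrin or matrix genes with it set to 0. The members' median of -0.21 was -0.26 and -0.16 at pseudocounts of 0.1 and 5 FPKM, -0.044 when centred, -0.28 when rescaled and -0.42 with the trend removed and the median kept. The causes of these shifts were not tested. Class medians ranged from -0.90 to -0.63 (adhesion plaque), -0.95 to -0.43 (integrin and matrix) and -0.17 to 0.17 (annexin, S100 and galectin). Centring turned the sign of 7 small differences, among them Ezr, Vim and S100a6; rescaling turned 3, of Tpm3, Anxa2 and Anxa5. The ratio of Actb to Actg1, 3.61 in β-Gal and 1.85 in HuR, was 3.11 and 1.59 with representative transcript lengths, an alternative chosen after seeing the data. Depth limits chiefly Anxa1, Cd44 and Thbs1.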
